A study of Homo sapiens with 6 samples.

Results

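Genes of glycolysis and of the cellular response to low oxygen were examined in AGS, a cell line derived from a human gastric adenocarcinoma. The set was 35 genes taken by symbol for their function, from the hexokinases to lactate dehydrogenase and from HIF1A to its transcriptional targets. Of the 35, 31 were found by symbol among the 11187 protein-coding genes of the deposited table, and values for ENO2, CA9, BNIP3 and ADM were not analysed here. Both groups were AGS cells grown in DMEM with 10% fetal bovine serum at 37 °C and 5% CO2. One group was transiently transfected with a negative control, called NC, and the other with miR-3648 mimics, synthetic copies of that microRNA. Each group held 3 RNA sequencing libraries made from total RNA with a stranded kit. The labels name no low-oxygen treatment and give no dose, time or sequence for either oligonucleotide, and nothing in them says that replicates were separate cultures. All values therefore come from 1 cell line, and p-values measure the spread between libraries, which may be technical.

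Glycolysis splits glucose into pyruvate in the cytosol, and lactate dehydrogenase turns pyruvate into lactate when it is not oxidised in mitochondria. Hypoxia-inducible factor (HIF) is the transcription factor that raises many of these genes when oxygen is short. In ample oxygen, prolyl hydroxylases of the EGLN family mark the HIF alpha subunit for destruction, so HIF activity is set largely by protein stability and not by the level of HIF1A mRNA. HIF binds a short DNA core in its targets, the hypoxia response element. Gastric cancer cells, like many tumour cells, commonly ferment glucose even in air.

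The mature sequence of the transfected microRNA shows what it could pair with in these transcripts. It is given as RefSeq lists it for MIR3648-2 on GRCh38.p14 (chr21:8987026-8987046, plus strand), 5′ to 3′, with the seed, bases 2 to 8, in capitals.
hsa-miR-3648: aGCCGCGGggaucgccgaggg
The matching words of 7 letters in a target are CCGCGGC, which pairs with the whole seed, and CGCGGCA. Neither word was found in the longest annotated 3′ UTR of any of the 29 tested genes of the set, in GENCODE 29. Over all 10179 tested genes with such a UTR, 2.12% held at least 1 of the words. A missing word says only that these letters are not in that stretch.

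The promoters of P4HA1, ALDOC, PDK3 and DDIT4 are shown because these are the genes with the smallest unadjusted p for which a promoter may be printed here. Promoters of NDRG1, VEGFA and BNIP3L were not searched here, and VEGFA had no entry. Each run is 300 bases, from 250 before to 50 after the annotated start, as RefSeq gives it on GRCh38.p14, written 5′ to 3′ along the gene. Capitals mark the core of the hypoxia response element, searched as ACGTG and GCGTG on both strands, where they read CACGT and CACGC. The word CACGTG holds ACGTG once on each strand and counts as 2.
P4HA1 (chr10:73096817-73097116, minus strand): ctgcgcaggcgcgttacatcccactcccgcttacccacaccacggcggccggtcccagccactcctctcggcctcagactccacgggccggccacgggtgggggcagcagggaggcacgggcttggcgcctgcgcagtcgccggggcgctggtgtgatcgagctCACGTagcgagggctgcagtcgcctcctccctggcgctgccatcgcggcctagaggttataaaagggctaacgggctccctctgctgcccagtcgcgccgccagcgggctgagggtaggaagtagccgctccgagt
ALDOC (chr17:28576846-28577145, minus strand): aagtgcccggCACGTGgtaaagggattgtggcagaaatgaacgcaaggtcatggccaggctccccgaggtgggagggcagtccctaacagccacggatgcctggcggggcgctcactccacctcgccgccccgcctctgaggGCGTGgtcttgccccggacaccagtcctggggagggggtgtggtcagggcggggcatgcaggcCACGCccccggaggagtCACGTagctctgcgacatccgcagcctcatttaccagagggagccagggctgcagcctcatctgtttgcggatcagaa
PDK3 (chrX:24465036-24465335, plus strand): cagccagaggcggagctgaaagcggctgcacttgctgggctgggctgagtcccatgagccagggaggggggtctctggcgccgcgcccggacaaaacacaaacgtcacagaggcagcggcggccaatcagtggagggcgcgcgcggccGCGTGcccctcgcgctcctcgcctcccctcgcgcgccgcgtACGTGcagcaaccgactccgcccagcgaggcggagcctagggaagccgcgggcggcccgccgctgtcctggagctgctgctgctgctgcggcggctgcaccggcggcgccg
DDIT4 (chr10:72273674-72273973, plus strand): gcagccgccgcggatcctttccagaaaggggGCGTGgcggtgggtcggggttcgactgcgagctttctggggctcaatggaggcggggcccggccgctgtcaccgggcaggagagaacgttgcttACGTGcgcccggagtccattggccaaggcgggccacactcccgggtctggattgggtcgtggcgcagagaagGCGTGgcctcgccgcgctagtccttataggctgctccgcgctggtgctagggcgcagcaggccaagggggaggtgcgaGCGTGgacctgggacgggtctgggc
ALDOC had 5 such cores, DDIT4 4, PDK3 2 and P4HA1 1. The word is common. At least 1 core lay in a promoter of 25 of the 28 listed genes of the set that were searched. The share was 71.0% of the 8728 listed genes of the table with an entry, which were not filtered by chromosome. A match is a description of letters and not a bound site.

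Values are FPKM, fragments scaled by transcript length and by library size, so levels can be compared between genes. The 6 most abundant genes of the set all encode enzymes of glycolysis or lactate dehydrogenase. GAPDH, which oxidises glyceraldehyde phosphate, averaged 873 FPKM over the 6 libraries and ranked 17 among all listed genes. The enolase gene ENO1 averaged 407 FPKM, triose phosphate isomerase (TPI1) 242, lactate dehydrogenase B (LDHB) 233, the phosphoglycerate mutase gene PGAM1 215 and pyruvate kinase (PKM) 143 FPKM. TPI1 and LDHB lay within each other's spread, as did PGK1, LDHA and ALDOA at 95.5, 94.8 and 92.0 FPKM. Hypoxia targets were lower, from 16.4 FPKM for P4HA1 and 9.05 FPKM for BNIP3L to 2.21 FPKM for NDRG1 and 0.507 FPKM for ANKRD37. The 16 listed glycolytic and lactate dehydrogenase genes summed to 2337 to 2768 FPKM in NC and 2474 to 2669 FPKM in mimic libraries, between 1.12% and 1.24% of the listed total in every library, and the groups overlapped.

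**Figure D1:**
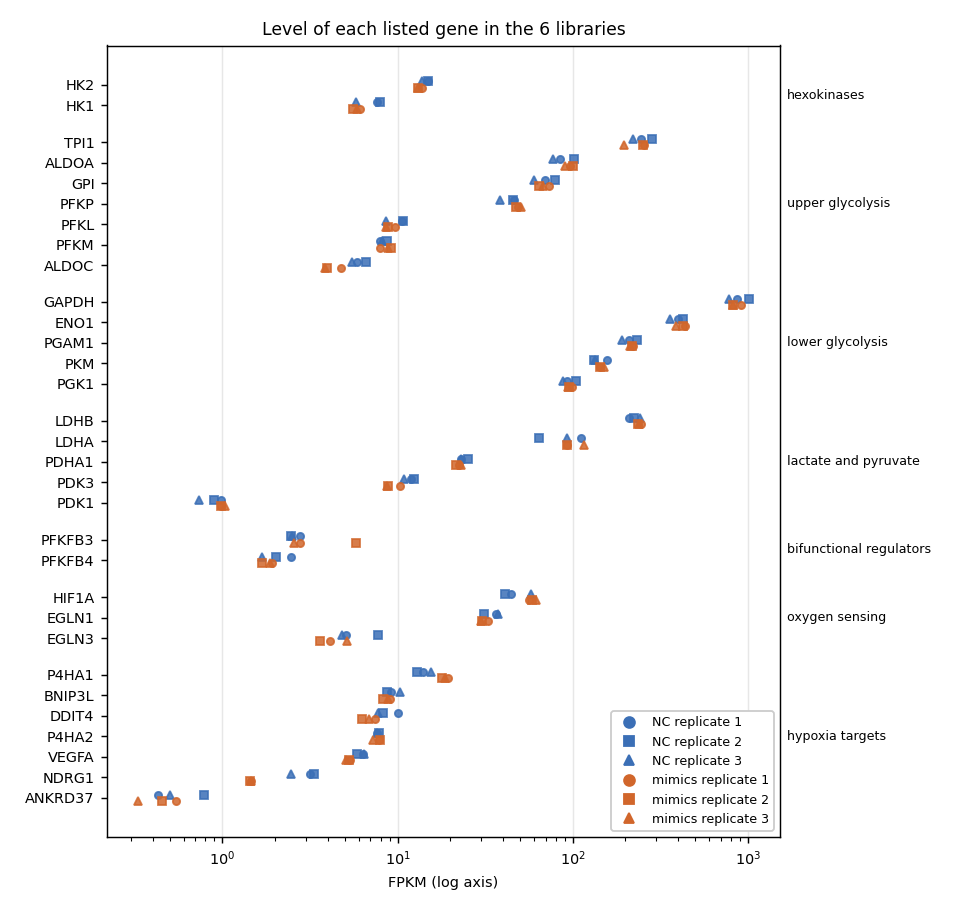
Level of each of the 31 listed genes in the 6 libraries, in FPKM on a log axis, grouped by role; blue is NC, orange is mimics, and marker shape is the replicate number. The range runs from ANKRD37 at 0.507 FPKM to GAPDH at 873 FPKM on average, and in most genes the 2 colours lie on top of each other.

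Groups were compared with limma on log2(FPKM + 1) over the 10286 genes with a mean of at least 1 FPKM, with p adjusted over all of them. Fold changes are mimics minus NC on that scale, which understates the change of low genes. Of the 29 genes of the set that were tested, 0 passed at an adjusted p of 0.05, where 42 genes (0.408%) passed in the whole table. An unadjusted p under 0.05 was reached by 7 of the 29, against 14.6% of all tested genes. Of the 7, 5 were lower in mimic libraries, NDRG1, ALDOC, PDK3, VEGFA and DDIT4, where 8.87% of all tested genes met both conditions, and 2 were higher, P4HA1 and HIF1A, where 5.77% of all tested genes met both. Groups did not overlap for 9 of the 29, against 22.2% of all tested genes. The median log2 fold change of the 29 was -0.055, with 17 negative and 12 positive, beside a median of -0.005 over all tested genes. With GC correction, described next, the median was 0.005, with 14 negative and 15 positive.

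One NC library touches several of these values. NC replicate 3 correlated with NC replicates 1 and 2 at a mean Pearson's r of 0.967 across tested genes and with the mimic libraries at 0.979, where NC replicates 1 and 2 had 0.982 with each other. Without it, 6 of the 29 genes passed, NDRG1, ALDOC, PDK3 and HK1 lower and P4HA1 and HIF1A higher, against 14.8% of all tested genes. Fold changes also ran with transcript GC content, with Spearman's rho of -0.50 across 10213 tested genes and -0.13 across the 29, which share the same libraries. After each library was corrected for its GC trend, 1 of the 29 passed, NDRG1, against 1.0% of all tested genes. With both steps together 1 of the 29 passed, again NDRG1, against 0.992% of all tested genes. Epithelial markers were plentiful in every library, at 771.1 to 951 FPKM summed over 6 genes in NC and 889.5 to 904 FPKM in mimics, carried by EPCAM and the keratins KRT8, KRT18 and KRT19. E-cadherin (CDH1) was low, at 2.48 to 4.20 FPKM, and CLDN4 varied from 0.841 to 8.55 FPKM in NC and from 0.948 to 4.92 FPKM in mimics. EPCAM was at 177 to 185 FPKM in NC and 196 to 206 FPKM in mimics, without overlap (limma adjusted p = 0.28). Of the markers of other cells, 1 of 6 for fibroblasts and 0 of 4 for endothelium were listed. The fibroblast marker COL1A1 lay at 1.07 to 1.48 FPKM in NC and 0.940 to 0.998 FPKM in mimics, without overlap. LYZ, a lysozyme gene of leukocytes and of gastric glands named here after its values were seen, was at 5.01 to 5.50 FPKM in NC and 3.69 to 4.14 FPKM in mimics, without overlap (log2 fold change -0.34, limma adjusted p = 0.18, and 0.047 without NC replicate 3). With GC correction the limma adjusted p of LYZ was 0.085, and 0.057 without NC replicate 3 as well. The part of these markers in the results was not tested. In bulk RNA, fewer cells that express a gene and less RNA per cell cannot be told apart.

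**Figure D2:**
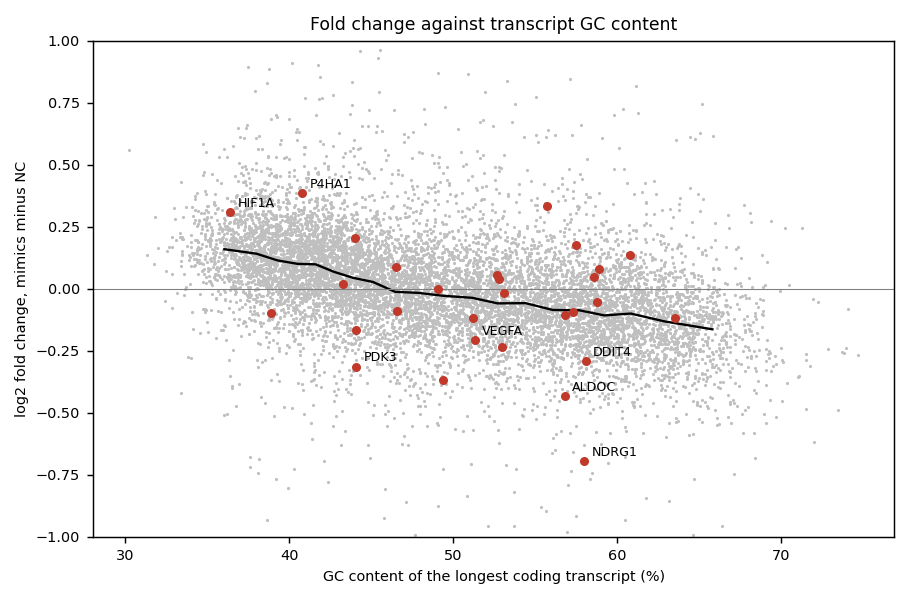
Log2 fold change, mimics minus NC, against GC content of the longest coding transcript, for all tested genes (grey), the 29 tested genes of the set (red, named where the unadjusted p was under 0.05) and the median in 20 equal bins of GC content (line). The line goes from 0.16 in the lowest bin to -0.16 in the highest, and 26 genes lie outside the plotted range. HIF1A and P4HA1 sit at the GC-poor end, and NDRG1 lies far below the line.

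Among the hypoxia targets, NDRG1 differed most. It encodes a stress-responsive cytoplasmic protein that is strongly induced by low oxygen and has been described as a suppressor of metastasis in several carcinomas. Its level was 3.16, 3.31 and 2.48 FPKM in NC replicates 1 to 3 and 1.45, 1.44 and 1.45 FPKM in mimic replicates 1 to 3. The groups were well apart, with the mimic libraries almost equal and NC replicate 3 the lowest of its group. The mimic mean was 0.485 times the NC mean, and the log2 fold change was -0.70 (SE 0.10), at a limma adjusted p of 0.058. The adjusted p was 0.017 with GC correction, 0.014 without NC replicate 3 and 0.027 with both, and it ranged from 0.0079 to 0.25 over all alternatives. NDRG1 lies on the minus strand of chromosome 8, 134249414 to 134314265 on GRCh37, where no other listed gene overlaps it.

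P4HA1 went the other way. It encodes the main catalytic subunit of collagen prolyl 4-hydroxylase, the endoplasmic reticulum enzyme that stabilises the collagen triple helix. Values were 13.9, 12.9 and 15.5 FPKM in NC and 19.5, 17.9 and 18.7 FPKM in mimics. The groups did not overlap, and the mimic mean was 1.32 times the NC mean (log2 fold change 0.38, SE 0.09, limma adjusted p = 0.16). Its transcript has 40.8% GC, and the fold change was 0.28 after GC correction (adjusted p = 0.091), 0.45 without NC replicate 3 (adjusted p = 0.027) and 0.25 with both (adjusted p = 0.11). P4HA2, the isozyme gene, averaged 7.69 ± 0.156 FPKM across NC libraries and 7.68 ± 0.395 across mimics (SD, n = 3). P4HA1 thus made up 64.6%, 62.1% and 67.1% of the summed FPKM of both in NC and 71.3%, 69.2% and 72.1% in mimic libraries, without overlap. P4HA2 overlaps PDLIM4 and SLC22A4, which lie on the opposite strand. Whether quantification used strand is not given in the sources used here.

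VEGFA, the growth factor gene that draws in new vessels, was at 6.36, 5.90 and 6.40 FPKM in NC and 5.34, 5.29 and 5.11 FPKM in mimic libraries. The groups were apart by about the spread within NC, and NC replicate 3 was the highest library here, away from the mimics. The log2 fold change was -0.21 (SE 0.08, limma adjusted p = 0.29), and -0.14 with GC correction and without NC replicate 3. DDIT4, whose product REDD1 restrains mTORC1 under stress, was at 10.1, 8.25 and 7.73 FPKM in NC and 7.47, 6.30 and 6.90 FPKM in mimics. The highest mimic library of DDIT4 lay just under the lowest NC library, again replicate 3 (log2 fold change -0.29, SE 0.11, adjusted p = 0.31). The fold change of DDIT4 was -0.19 without NC replicate 1 and -0.36 without NC replicate 3 (limma adjusted p = 0.076). It was -0.43 with array weights (adjusted p = 0.043). With GC correction and without NC replicate 3 it was -0.23 (adjusted p = 0.29). BNIP3L, a receptor for removal of mitochondria, averaged 9.40 ± 0.833 FPKM across NC libraries and 8.70 ± 0.396 across mimics (SD, n = 3), with overlap. Its log2 fold change was -0.10, -0.23 with GC correction and -0.04 without NC replicate 3. ANKRD37, a small ankyrin repeat gene near the lower end of the table, lay below the filter, at 0.431, 0.784 and 0.502 FPKM in NC and 0.541, 0.453 and 0.329 FPKM in mimics (exact permutation p = 0.5, two-sided, where 3 against 3 cannot go below 0.1). The gene overlaps UFSP2, which lies on the opposite strand and was far higher, at 5.36 to 8.98 FPKM. Among the 6 tested hypoxia targets the fold changes therefore ran in both directions, from -0.70 to 0.38.

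**Figure D3:**
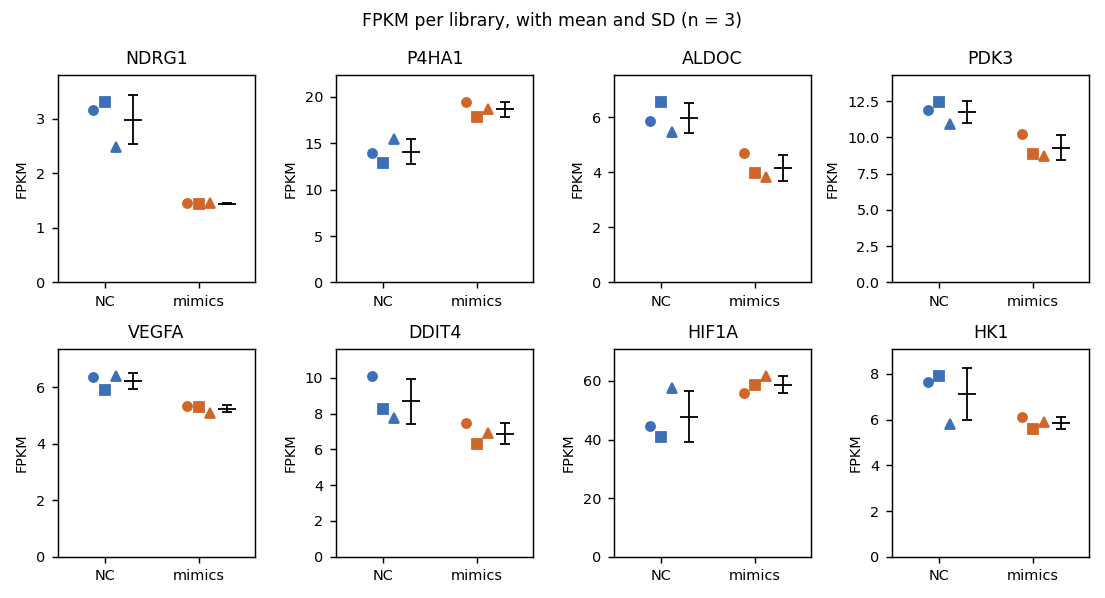
FPKM of the 7 genes with an unadjusted p under 0.05 and of HK1, per library, with axes that start at 0; blue is NC, orange is mimics, circles, squares and triangles are replicates 1, 2 and 3, and black bars are the mean and SD (n = 3). The mimic values of NDRG1 lie between 1.44 and 1.45 FPKM, below all NC values, and in HIF1A and HK1 the triangle of NC replicate 3 lies among the mimic libraries.

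In oxygen sensing, HIF1A, the regulated alpha subunit, was the most abundant gene. It was at 44.7 and 41.0 FPKM in NC replicates 1 and 2, at 57.6 FPKM in NC replicate 3 and at 56.0, 58.6 and 61.7 FPKM in mimic replicates 1 to 3. NC replicate 3 lay inside the mimic range, so the groups overlapped (log2 fold change 0.31, SE 0.13, limma adjusted p = 0.33). The HIF1A transcript has the lowest GC content of the set, 36.4%, and the fold change was 0.15 after GC correction (adjusted p = 0.17). It was 0.45 without NC replicate 3 (adjusted p = 0.027) and 0.15 with both steps (adjusted p = 0.15). EGLN1, the main oxygen sensor, was at 36.6, 31.1 and 37.5 FPKM in NC and 32.7, 30.5 and 30.0 FPKM in mimics. EGLN3, a family member that HIF itself induces, was at 5.10, 7.76 and 4.82 FPKM in NC and 4.10, 3.59 and 5.16 FPKM in mimics. Both overlapped between groups, with log2 fold changes of -0.17 (SE 0.09) and -0.37 (SE 0.18) and adjusted p of 0.42 and 0.39. The gene model of EGLN3 in the deposited table spans chromosome 14 from 34393437 to 34931980 on GRCh37 and contains SPTSSA on the same strand, at 18.2 to 23.6 FPKM, so reads can be exchanged between them.

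The hexokinases, which trap glucose in the cell as its phosphate, were both lower on average in mimics. HK2, the inducible isozyme of many tumours, was at 15.0, 14.9 and 13.8 FPKM in NC and 13.7, 13.2 and 13.0 FPKM in mimics, and the groups were just apart (log2 fold change -0.12, SE 0.07, limma adjusted p = 0.46). HK1, the housekeeping isozyme, was at 7.64 and 7.91 FPKM in NC replicates 1 and 2 but at 5.80 FPKM in NC replicate 3, inside the mimic range of 5.57 to 6.12 FPKM. Its log2 fold change was -0.23 over all libraries (adjusted p = 0.40), -0.36 without NC replicate 3 (adjusted p = 0.034) and -0.28 with GC correction as well (adjusted p = 0.094).

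Of the 12 tested enzymes from GPI to PKM, 7 had a positive and 5 a negative fold change. ALDOC, the aldolase isozyme best known from brain, stood out as the exception in size. It was at 5.89, 6.58 and 5.49 FPKM in NC and 4.72, 3.97 and 3.83 FPKM in mimics. The groups did not overlap, and the mimic mean was 0.698 times the NC mean (log2 fold change -0.43, SE 0.10, limma adjusted p = 0.18). The adjusted p was 0.088 with GC correction, 0.039 without NC replicate 3 and 0.11 with both, where the fold change was -0.36. Its larger isozyme ALDOA averaged 87.9 ± 12.3 FPKM across NC libraries and 96.2 ± 5.10 across mimics (SD, n = 3), with overlap. ALDOC therefore held 6.49%, 6.09% and 6.63% of the summed aldolase FPKM in NC and 4.65%, 3.78% and 4.05% in mimics. ALDOC (chromosome 17, 26900133 to 26904282, minus strand, GRCh37) lies inside AC005726.2 on the same strand, which was listed at 0.469 to 0.854 FPKM, and the sum of both did not overlap between groups either, at 5.96 to 7.27 FPKM in NC and 4.37 to 5.34 FPKM in mimics.

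Phosphofructokinase commits sugar to glycolysis and has 3 isozyme genes. PFKP, the platelet type and the most abundant here, was at 46.1, 45.3 and 38.6 FPKM in NC and 48.7, 47.4 and 50.8 FPKM in mimics. PFKL, the liver type, was at 10.6, 10.7 and 8.56 FPKM in NC and 9.72, 8.84 and 8.61 FPKM in mimics. PFKP did not overlap between groups and PFKL did, and their log2 fold changes were 0.18 (SE 0.09) and -0.12 (SE 0.11), with limma adjusted p of 0.39 and 0.61. As shares of the 3 genes, PFKP lay at 71.3%, 70.0% and 69.8% in NC and 73.4%, 72.5% and 74.4% in mimics. The share of PFKL was 15.5% to 16.6% in NC and 12.6% to 14.7% in mimics, without overlap, while that of PFKM, the muscle type, overlapped. PFKM averaged 8.27 FPKM in NC and 8.64 FPKM in mimics. Its gene shares positions with SENP1, which lies on the opposite strand and was at 5.69 to 7.42 FPKM. PFKL is the most GC-rich transcript of the set, at 63.5%, and its fold change was 0.01 after GC correction. Without NC replicate 3 the fold changes were 0.10 for PFKP and -0.21 for PFKL. That of PFKP was 0.25 after GC correction (limma adjusted p = 0.089). With both steps the fold changes were 0.23 for PFKP (limma adjusted p = 0.1) and -0.01 for PFKL.

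The other enzymes of the pathway lay close to even. GAPDH was at 868, 1021 and 785 FPKM in NC and 916, 819.7 and 827 FPKM in mimics, and every mimic library lay within the NC range (log2 fold change -0.05, SE 0.10). ENO1 was at 399, 429 and 361 FPKM in NC and 438, 429 and 388 FPKM in mimics (log2 fold change 0.08, SE 0.08). GPI, TPI1, PGK1, PGAM1 and PKM likewise overlapped between groups. Apart from ALDOC, the 11 genes from GPI to PKM had fold changes between -0.12 and 0.18 and adjusted p of 0.39 or more. Their range was -0.05 to 0.25 with GC correction and -0.21 to 0.10 without NC replicate 3. A p above the threshold does not show equality, but the SE of these fold changes was 0.13 or less. NC replicate 3 was the lowest of the 6 libraries for GAPDH, ENO1, PGK1, PGAM1, GPI, ALDOA, PFKP and PFKL. Some of these genes have many pseudogenes that can share reads: GENCODE 29 names 62 after GAPDH, 13 after PGAM1, 6 after LDHA, 5 after PKM and 4 each after ENO1 and TPI1.

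**Figure D4:**
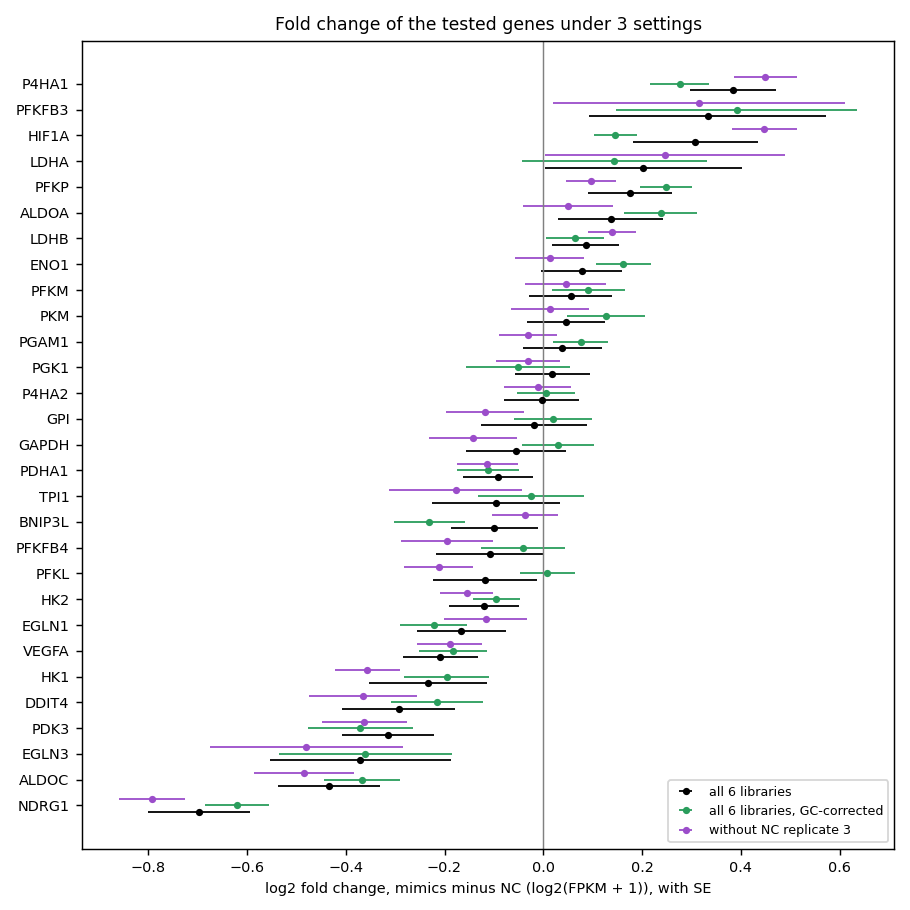
Log2 fold change, mimics minus NC, with SE, of the 29 tested genes, over all 6 libraries (black), with GC correction (green) and without NC replicate 3 (purple). NDRG1 lies lowest under all 3 settings, from -0.62 to -0.79, while P4HA1 and HIF1A move toward 0 with GC correction and away from it without NC replicate 3.

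At the exit of the pathway, lactate dehydrogenase varied between libraries more than between groups. LDHA, the form that favours lactate, was at 111, 63.8 and 92.3 FPKM in NC and 93.2, 92.5 and 116 FPKM in mimics. LDHB was at 211, 225 and 243 FPKM in NC and 245, 235 and 239 FPKM in mimics. LDHA held 34.5%, 22.1% and 27.5% of the summed FPKM in NC and 27.5%, 28.3% and 32.7% in mimics, so LDHB was the more abundant transcript in all 6 libraries and the shares overlapped. The log2 fold changes were 0.20 (SE 0.20) for LDHA and 0.09 (SE 0.07) for LDHB, with limma adjusted p of 0.64 and 0.57. LDHB was at 0.14 without NC replicate 3.

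PDK3, a kinase that switches off pyruvate dehydrogenase and so diverts pyruvate from mitochondria, was at 11.9, 12.5 and 10.9 FPKM in NC and 10.3, 8.84 and 8.70 FPKM in mimics. The groups were separate, and the mimic mean was 0.788 times the NC mean (log2 fold change -0.31, SE 0.09, limma adjusted p = 0.23). Its GC content is 44.1%, on the side where most genes were higher in mimics, and the fold change was -0.37 with GC correction (adjusted p = 0.16) and -0.36 without NC replicate 3 (adjusted p = 0.048). With both steps the fold change was -0.46 (adjusted p = 0.086). PDK1, the kinase best known as a HIF target, was far lower and below the filter, at 0.985, 0.899 and 0.733 FPKM in NC and 0.979, 0.976 and 1.03 FPKM in mimics (exact permutation p = 0.3, two-sided). PDK1 held 6.29% to 7.65% of the summed FPKM of PDK1 and PDK3, with PDK2 left out, in NC and 8.71% to 10.6% in mimics, without overlap. PDHA1, the pyruvate dehydrogenase subunit that these kinases phosphorylate, was at 23.1, 25.3 and 23.1 FPKM in NC and 22.4, 21.6 and 22.9 FPKM in mimics, just apart (log2 fold change -0.09, SE 0.07, adjusted p = 0.56).

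PFKFB3 and PFKFB4 make and break down fructose 2,6-bisphosphate, the activator of phosphofructokinase. PFKFB3 was between 2.47 and 2.76 FPKM in all NC libraries, at 2.76 and 2.56 FPKM in mimic replicates 1 and 3 and at 5.80 FPKM in mimic replicate 2. The mimic mean of 3.71 FPKM thus rested on 1 library (log2 fold change 0.33, SE 0.24, limma adjusted p = 0.54), and the fold change was 0.03 without it. PFKFB4 averaged 2.05 ± 0.385 FPKM across NC libraries and 1.82 ± 0.121 across mimics (SD, n = 3), with overlap. Its log2 fold change was -0.11, -0.04 with GC correction and -0.20 without NC replicate 3.

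**Figure D5:**
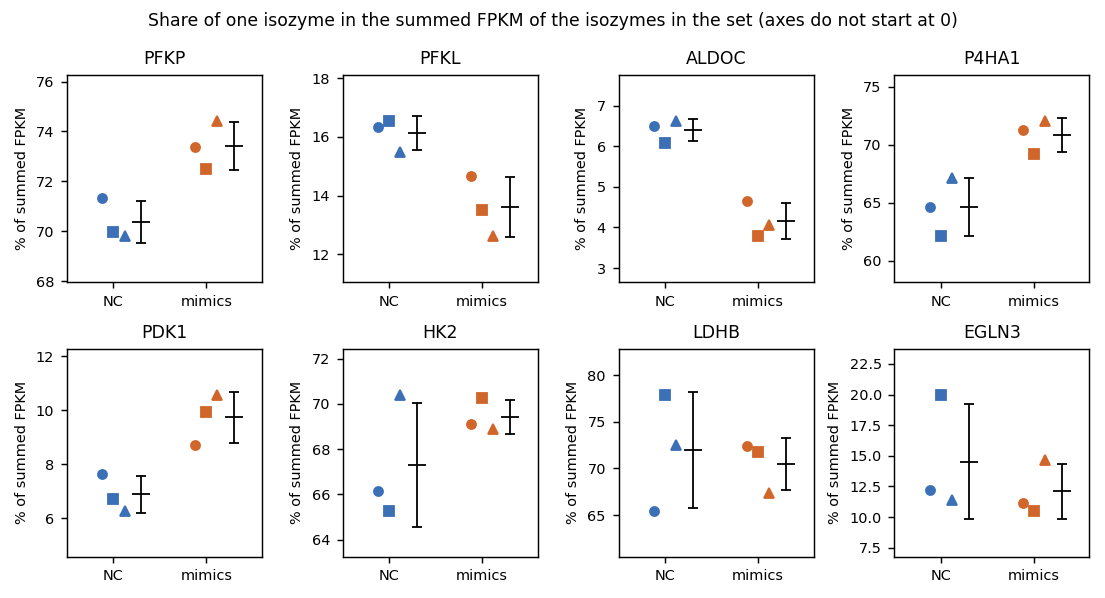
Share of 1 isozyme in the summed FPKM of the isozymes that belong to the set, in percent, per library, with mean and SD (n = 3); blue is NC, orange is mimics, circles, squares and triangles are replicates 1, 2 and 3, and axes do not start at 0. Groups are apart for PFKP, PFKL, ALDOC, P4HA1 and PDK1 and overlap for HK2, LDHB and EGLN3. PDK2, at 1.76 to 2.96 FPKM, and EGLN2, at 9.38 to 14.2 FPKM, are outside the set and not in the sums. The shares of 1 enzyme add to a whole, so they are not independent, and they were not tested.

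Other genes of the same pathways were read from a list of 93 symbols, of which 55 were listed and 54 tested. By limma 0 of the 54 passed at an adjusted p of 0.05, against 0.408% of all tested genes. An unadjusted p under 0.05 was reached by 10, 4 higher and 6 lower in mimics, where the shares over all tested genes were 14.6%, 5.77% and 8.87%. Their median log2 fold change was -0.024. The ephrin ligand genes EFNA3 and EFNA1, which hypoxia induces in some tumour cells, were the lowest in p. EFNA3 was at 10.3, 9.64 and 9.10 FPKM in NC and 7.35, 6.34 and 6.41 FPKM in mimics, without overlap (log2 fold change -0.47, SE 0.09, adjusted p = 0.12). Its adjusted p was 0.028 without NC replicate 3 and 0.021 with array weights. With GC correction the fold change of EFNA3 was -0.37 (adjusted p = 0.072). It was -0.34 with GC correction and without NC replicate 3 (adjusted p = 0.096). EFNA1 was at 16.6, 22.4 and 21.0 FPKM in NC and 14.1, 14.8 and 12.9 FPKM in mimics, without overlap (log2 fold change -0.49, adjusted p = 0.19), and its fold change was -0.31 with GC correction and without NC replicate 3. EPAS1, which encodes the second HIF alpha subunit, was at 5.91, 6.80 and 5.99 FPKM in NC and 5.03, 4.77 and 4.75 FPKM in mimics (log2 fold change -0.30, adjusted p = 0.21, and 0.045 with array weights). The adjusted p of EPAS1 was 0.11 with GC correction, 0.05 without NC replicate 3 and 0.13 with both. The EPAS1 groups did not overlap, while those of the shared partner subunit ARNT did (log2 fold change 0.13, adjusted p = 0.59).

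Transport genes differed among themselves. SLC2A3, the high-affinity glucose transporter GLUT3, was at 32.8 and 35.4 FPKM in NC replicates 1 and 2 but at 17.5 FPKM in NC replicate 3, below the mimic range of 18.6 to 19.6 FPKM. Its log2 fold change was -0.50 over all libraries (limma adjusted p = 0.39) and -0.81 without NC replicate 3 (adjusted p = 0.013). SLC2A1, the main glucose transporter GLUT1, named here after its values were seen, was at 88.8, 98.5 and 72.8 FPKM in NC and 90.3, 90.6 and 90.7 FPKM in mimics, with overlap. SLC16A1, a lactate transporter, was at 97.6, 95.7 and 114 FPKM in NC and 89.8, 91.8 and 76.5 FPKM in mimics, just apart (log2 fold change -0.25, adjusted p = 0.33). PDHB, the beta partner of PDHA1, was at 7.75, 8.07 and 8.01 FPKM in NC and 9.34, 9.04 and 9.30 FPKM in mimics, without overlap (log2 fold change 0.19, adjusted p = 0.29, and 0.11 for the fold change with GC correction and without NC replicate 3). PDPR, a regulator of pyruvate dehydrogenase phosphatase, had a log2 fold change of -0.21, the phosphoglucomutase gene PGM1 one of 0.19 and TIGAR, a fructose bisphosphatase induced by p53, one of 0.17, all with overlap and adjusted p of 0.37, 0.44 and 0.47. Without NC replicate 3, PGM1 was at 0.08 and TIGAR at 0.28, with an adjusted p of 0.034 for TIGAR. With GC correction TIGAR was at 0.12 (adjusted p = 0.47), and at 0.18 without NC replicate 3 as well (adjusted p = 0.16).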

How the data were processed

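Total RNA of 6 AGS libraries, 3 NC and 3 mimics, was sequenced by the authors. The deposited values are FPKM for protein-coding genes, per the file headers; StringTie 1.3.3, cutadapt and GRCh37 appear in the submitters' processing notes. The aligner and the strand setting were not given in the sources used here. Groups and replicate numbers came from the sample titles. FPKM carry no counts, so the depth is unknown and no counting interval is given; the listed FPKM summed to 208274 to 222947 per library. Values were taken as log2(FPKM + 1) without scaling, 10286 genes with a mean of at least 1 FPKM were tested and 901 were not. The two-sided test was limma 3.58.1 under R 4.3.3, its prior variance following a trend on mean level, with Benjamini-Hochberg adjustment over all tested genes at 0.05, and was tested on simulated data. Genes below the filter had an exact permutation test.

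GC content is that of the longest protein-coding transcript in GENCODE 29 (GRCh38), available for 99.3% of tested genes. The correction was a loess curve (span 0.5) per library, and genes without a GC value were left uncorrected. Other alternatives were pseudocounts, filters, scaling, array weights, the prior, the replicate block and leaving out each library. The members, lists and tests were chosen with earlier results of these data known. The naming rule took every listed gene of the set, and of the other pathway genes those called and the 2 of smallest p in each of 5 roles. The leukocyte marker list as a whole is not reported here.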

Additional observations from a re-analysis of the deposited data

How the results depend on the processing

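No gene of the set passed limma over all 6 libraries, nor with another pseudocount, filter, scaling, prior or replicate block. The count was 7 with array weights, whose estimation stopped before its tolerance was reached, 1 with GC correction, 1 with GC correction without NC replicate 3, and 0 to 6 when single libraries were left out, the 6 without NC replicate 3. Of the other pathway genes, 0 to 7 passed with single libraries left out, again highest without NC replicate 3, 9 with array weights and 2 with GC correction without NC replicate 3. Over the whole table the 42 calls became 1355 with array weights, 103 with GC correction, 102 with GC correction without NC replicate 3, 11 with the replicate block, 11 with GC correction and the replicate block, and 8 to 1527 with single libraries left out. The cause was not tested. The labels do not say whether same-numbered libraries were handled together. Their deviations from the group means correlated at 0.04, -0.04 and 0.07, which cannot decide it with 3 libraries per group. The block left 0 genes of the set called.

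Signs changed for genes that were not called, with fold changes of up to 0.20 in size over all libraries (LDHA). With GC correction, alone or with the replicate block, GPI was at 0.02, PFKL at 0.01, GAPDH at 0.03, P4HA2 at 0.01 and PGK1 at -0.05. With GC correction without NC replicate 3, GAPDH was at 0.0026, P4HA2 at 0.01 and PGK1 at -0.15. PGK1 was at -0.01 with quantile normalization, PKM at -0.04 with array weights, and P4HA2 at 0.00045 with median scaling, 0.0011 with quantile normalization and 0.0035 with array weights. With single libraries left out, GPI ranged from -0.12 to 0.07, TPI1 from -0.18 to 0.02, GAPDH from -0.14 to 0.05, PGK1 from -0.03 to 0.09, PGAM1 from -0.03 to 0.11, LDHA from -0.02 to 0.38, P4HA2 from -0.03 to 0.04 and SLC2A1 from -0.05 to 0.17. NDRG1 ranged there from -0.79 to -0.64 and P4HA1 from 0.33 to 0.45.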

Other observations

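The median coefficient of variation of the 29 tested genes was 9.53% among NC and 5.15% among mimic libraries, beside 12.2% and 5.91% over all tested genes. NC replicate 3 was the NC library nearest to the mimic mean for 13 of the 29, or 44.8%, beside 5141 of the 10286 tested genes.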
